A study of Rattus norvegicus with 6 samples.

Results

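The genes described here are 9 mitochondrial chaperones and proteases, Hspd1, Hspe1, Hspa9, Grpel1, Trap1, Lonp1, Clpp, Clpx and Afg3l2, a list made by gene name, of 11237 genes measured in the left atrium. A gene was read from the probe sets that carry its symbol alone in the array annotation, and where a gene had several probe sets the one with the highest mean over the arrays was taken. This gave 8 of the 9 genes, all of which passed the filter on dim probe sets (1 array or more with a log2 signal over 5). Clpp, the proteolytic barrel of the ClpXP protease, has no probe set under its symbol alone and was not analysed here. The samples are left atria of 6 adult male Sprague-Dawley rats, 1 array per rat: 3 with rapid atrial pacing (RAP), the cycle length being 70 ms, and 3 with control pacing (Con), the cycle length being 140 ms, all paced through a right atrial electrode over 48 hours. All rats drank atenolol, a beta-blocker that slows conduction to the ventricles, and the ventricular rate was alike in both groups, so that both were paced hearts and neither was an unpaced one. A RAP rat and its Con rat were operated on and paced side by side as a pair. The pairs 1 to 3 used here were matched by the replicate numbers of the labels, which do not name the pairs. Further pairs of the study gave no RNA of sufficient quality and are not on arrays.

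Most mitochondrial proteins are made in the cytosol, enter the matrix unfolded through the TOM and TIM23 channels, and are pulled in and folded by chaperones inside. Hspa9 (mortalin) is the mitochondrial member of the HSP70 family and the motor of import. Hspd1 (HSP60) and its lid Hspe1 (HSP10) form the folding chamber of the matrix, and proteins that misfold are degraded by ATP-driven proteases, of which Lonp1 and ClpXP work in the matrix and the m-AAA protease, built from Afg3l2, in the inner membrane. In cardiomyocytes, which are packed with mitochondria, these genes are transcribed at a high level, and in mammalian cells stress of the mitochondrial matrix can raise several of them together.

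After RAP, 4 of the 8 measured genes rose and 0 fell: the chaperones Hspd1, Hspa9 and Trap1 and the protease Afg3l2, by 1.32-fold to 1.46-fold. Rose and fell are used of genes whose change exceeded 1.3-fold and for which limma, fitted with the rat pairs as blocks, gave an unadjusted p below 0.05, which are the thresholds of the study's methods. Over all 11237 genes, 2.94% rose by this rule and 3.45% fell, 6.39% in all (5.93% of the probe sets). The median change of the 8 genes was 0.40 on the log2 scale, beside -0.01 for all genes, and all 8 had a mean change above 0. The 4 calls rest on thresholds that do not correct for the number of tests: with Benjamini and Hochberg's adjustment over the 19907 probe sets limma gave an adjusted p of 0.756 for each of them. By limma, 0 of the 11237 genes had an adjusted p under 0.05 and 774 an unadjusted p under 0.05. The methods' paired t-test gave 0 and 637. By that test at the same thresholds 0 of the 8 genes passed (1.06% of all genes rose), and without pair 1 or without pair 2 limma called 0 of them. Without pair 3 it called Hspd1, Hspa9 and Afg3l2, but not Trap1. Of all 11237 genes, limma called 58 higher with RAP without pair 1, 164 without pair 2 and 1066 without pair 3, beside 330 with all pairs. Since this is whole tissue, a change in the number of cells of a type and a change in RNA per cell cannot be told apart.

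**Figure D1:**
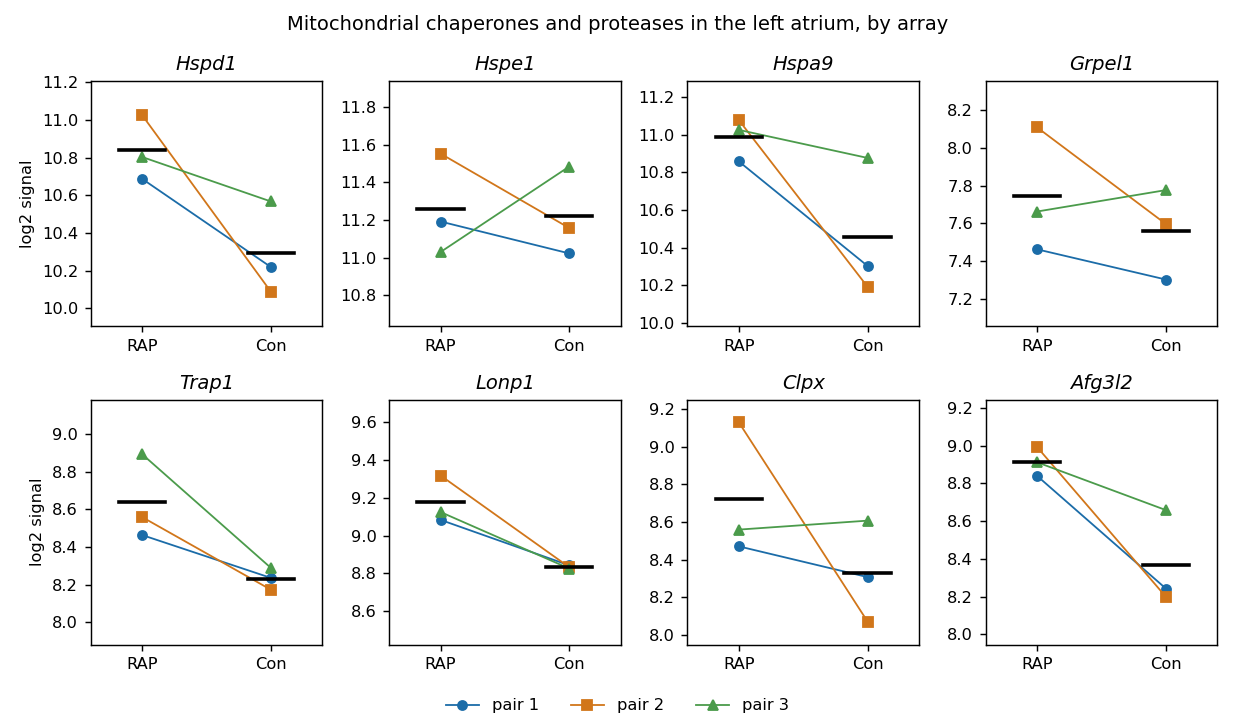
Log2 signal of the 8 measured genes on the 6 arrays, RAP left and Con right in each panel, with the rats of a pair joined by a line and group means as black bars; every panel spans the same range of log2 signal. In Hspd1, Trap1, Lonp1 and Afg3l2 each RAP array lies above each Con array, while Hspe1 and Grpel1 overlap and the line of pair 3 runs the other way.

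The HSP60 chamber gene Hspd1 stood at a log2 signal of 10.69, 11.03 and 10.80 on the RAP arrays 1 to 3, against 10.22, 10.09 and 10.57 on the Con arrays 1 to 3. The groups do not overlap, and Con 3, the highest control, lies nearest to the RAP arrays. RAP minus Con was 0.55 (SE 0.18, 95% interval 0.07 to 1.03, fold change 1.46), with 0.47, 0.94 and 0.24 in pairs 1, 2 and 3. It was 0.59 without pair 1 and 0.35 without pair 2, and passed the thresholds in neither case. A second, dimmer probe set of Hspd1 read 6.46, 7.04 and 6.61 with RAP and 6.07, 6.03 and 6.77 with Con, a difference of 0.41 (SE 0.25) that did not pass. The second probe set is thus higher with RAP in pairs 1 and 2 and lower in pair 3. Rodent genomes hold processed copies of this gene, and whether either probe set reads them was not tested.

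Hspe1, the HSP10 lid that closes the HSP60 chamber, differed between the groups by less than the spread within them. Its log2 signal was 11.19, 11.55 and 11.03 with RAP, against 11.02, 11.16 and 11.48 with Con. RAP minus Con was 0.04 (SE 0.21, 95% interval -0.50 to 0.58), the smallest mean change of the 8 genes. The pairs differed by 0.17, 0.39 and -0.45, so that the sign turned in pair 3, in which Con 3 was the highest of the controls. The change of Hspd1 exceeded that of Hspe1 by 0.30, 0.54 and 0.69 in pairs 1, 2 and 3, a mean of 0.51 ± 0.20 (SD over the 3 pairs). An exact two-sided sign-flip test over 3 pairs gave p = 0.25, the smallest it allows. The partner differences were named after their values were seen, so this p and those below are descriptions.

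Hspd1 and Hspe1 lie head to head on rat chromosome 9, and the sequence around their starts is shown because it holds most of the window used for each gene. In RefSeq's annotation of GRCr8, Hspd1 spans chr9:64073610-64084332 on the minus strand and Hspe1 chr9:64084327-64087415 on the plus strand. The starts used for the promoter sequences are 289 bases apart, and of the 250 bases before each start 211 are common to both. The annotated spans overlap at their ends, so these shared bases lie within the annotated span of Hspd1 and precede only the inner of its starts, the one used here. RefSeq held such a sequence for 7 of the 9 genes, without Lonp1 and Clpx. The 250 bases before Hspe1 (chr9:64084077-64084326, plus strand) are printed 5′ to 3′, with the matches to the motifs searched in capitals.
Hspe1: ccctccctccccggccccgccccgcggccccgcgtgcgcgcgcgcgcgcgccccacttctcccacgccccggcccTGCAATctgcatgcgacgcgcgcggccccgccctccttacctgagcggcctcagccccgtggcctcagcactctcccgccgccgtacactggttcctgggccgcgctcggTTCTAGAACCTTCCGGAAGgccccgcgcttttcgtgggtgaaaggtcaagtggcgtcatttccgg
The capitals near the end hold the heat shock element, the binding motif of the heat shock factor, in its forms TTCNNGAA (beginning 65 and 55 bases before the start of Hspe1) and GAANNTTC (60 bases before), overlapped by the ETS motif CCGGAAG. The capitals in the first part are TGCAAT, a motif bound by CHOP with C/EBP proteins, 175 bases before the start. Read on both strands, TTCNNGAA is found in 7.48%, GAANNTTC in 7.23%, CCGGAAG in 7.27% and TGCAAT in 7.22% of the 33469 rat sequences of the same length. These letters are in the windows of both genes, of which Hspd1 rose and Hspe1 did not pass, but for Hspd1 they lie inside its annotated span.

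Hspa9, the mitochondrial HSP70, which pulls proteins through the import channel and hands them on to HSP60, stood at 10.86, 11.08 and 11.02 with RAP, against 10.30, 10.19 and 10.88 with Con. Con 3 lies just above RAP 1, so the groups overlap at this single array. RAP minus Con was 0.53 (SE 0.19, 95% interval 0.04 to 1.02, fold change 1.44), with 0.55, 0.88 and 0.15 in the pairs, and 0.52 without pair 1 and 0.35 without pair 2, in neither case past the thresholds. Grpel1, the nucleotide exchange factor that releases ADP from Hspa9, read 7.46, 8.11 and 7.66 with RAP and 7.30, 7.60 and 7.78 with Con, a difference of 0.19 (SE 0.17, 95% interval -0.26 to 0.63) that did not pass. The change of Hspa9 exceeded that of Grpel1 by 0.39, 0.37 and 0.26 in pairs 1 to 3, and the mean of 0.34 ± 0.07 (SD, 3 pairs) again has the smallest exact sign-flip p that 3 pairs allow, 0.25. Dnaja3, the J protein that stimulates the ATPase of Hspa9, followed Hspa9 more closely. It rose by 0.49 (SE 0.17), the difference of Hspa9 from it being -0.09, 0.19 and 0.02 in the pairs, with a mean of 0.04 ± 0.14 (SD; exact sign-flip p = 0.75).

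Trap1, the mitochondrial HSP90, rose by 0.41 (SE 0.14, 95% interval 0.03 to 0.78, fold change 1.32). It read 8.46, 8.56 and 8.89 with RAP, against 8.24, 8.17 and 8.29 with Con, and the groups do not overlap. It is the one measured gene whose RAP minus Con was highest in pair 3 (0.60, beside 0.23 and 0.39 in pairs 1 and 2), and leaving out any of the 3 pairs lost the call, with 0.49, 0.42 and 0.31 without pairs 1, 2 and 3. Ppif, the cyclophilin D that Trap1 binds and that opens the permeability transition pore, differed by 0.66 (SE 0.28) and did not pass, with 0.95, 1.14 and -0.12 in the pairs.

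**Figure D2:**
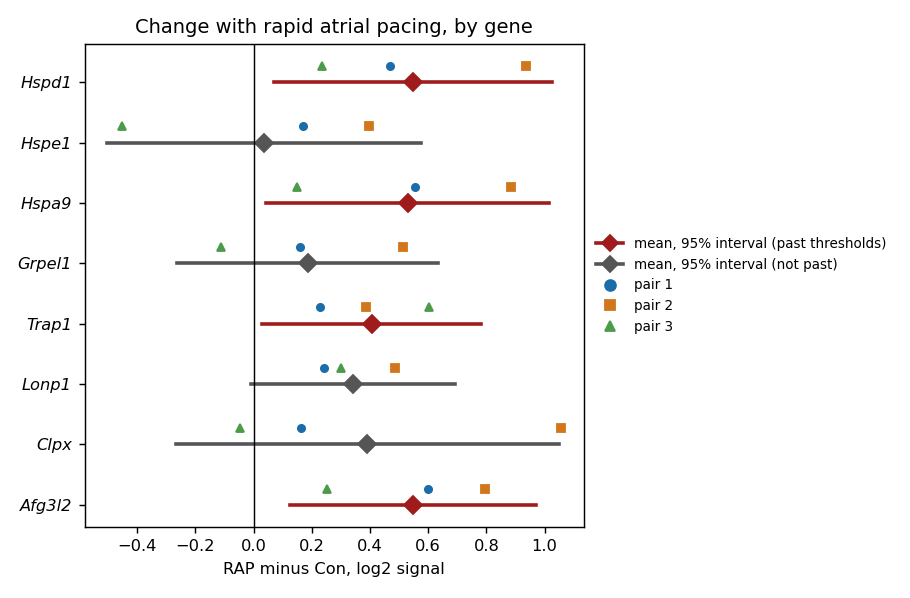
RAP minus Con of the 8 measured genes on the log2 scale, with diamonds for the mean of the 3 pairs, bars for the 95% interval of limma's moderated fit, red where the thresholds were passed and grey where not, and small symbols for the single pairs. The intervals of Hspd1, Hspa9, Trap1 and Afg3l2 lie above 0, and RAP minus Con, sign included, is highest in pair 2 for every gene except Trap1.

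Of the proteases, Afg3l2, a subunit of the m-AAA protease of the inner membrane, rose, and Lonp1 and Clpx did not pass. Afg3l2 read 8.84, 8.99 and 8.91 with RAP and 8.24, 8.20 and 8.66 with Con, without overlap, and RAP minus Con was 0.55 (SE 0.16, 95% interval 0.13 to 0.97, fold change 1.46), as large as that of Hspd1. The difference was 0.60, 0.79 and 0.25 in the pairs, and the call was lost without pair 1 (0.52) and without pair 2 (0.43). Spg7 (paraplegin), which joins Afg3l2 in the mixed form of the m-AAA protease, did not pass at 0.01 (SE 0.24), with 0.47, 0.13 and -0.58 in the pairs. The change of Afg3l2 exceeded that of Spg7 by 0.13, 0.67 and 0.84, a mean of 0.54 ± 0.37 (SD, 3 pairs; exact sign-flip p = 0.25).

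Lonp1, the Lon protease that clears oxidized proteins from the matrix, stood at 9.08, 9.32 and 9.12 with RAP, against 8.84, 8.83 and 8.82 with Con. The controls were nearly equal, and each RAP array lay above them. RAP minus Con was 0.34 (SE 0.13, 95% interval -0.01 to 0.69), a 1.27-fold change that missed both thresholds. Clpx, the ATPase that unfolds proteins for Clpp, differed mainly in pair 2. It read 8.47, 9.13 and 8.56 with RAP and 8.31, 8.07 and 8.61 with Con, and its difference of 0.39 (SE 0.25) came from 0.16, 1.06 and -0.05 in the pairs. Together, 4 of the 8 genes had every RAP array above every Con array (7.57% of all genes) and 5, the same 4 and Hspa9, were higher in all 3 pairs (14.3% of all genes).

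**Figure D3:**
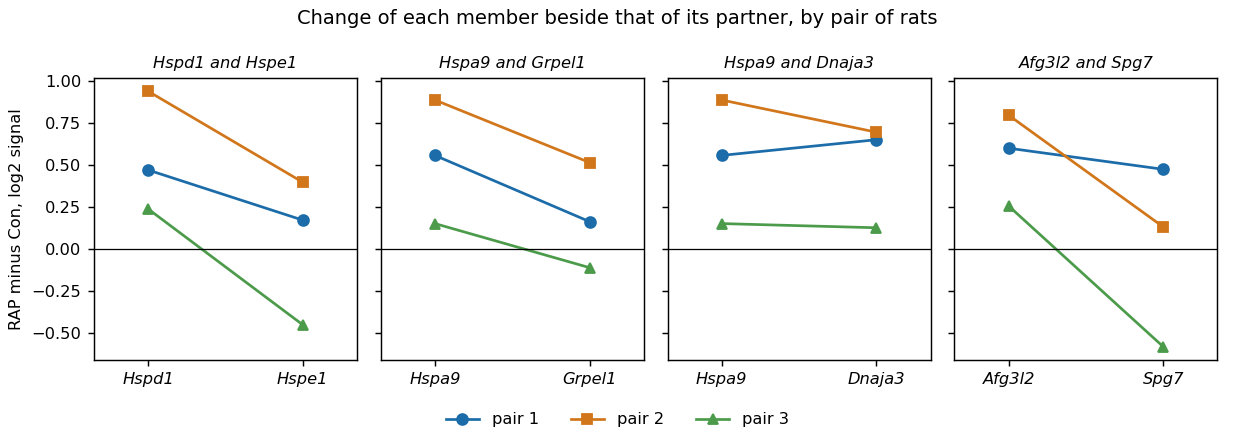
RAP minus Con on the log2 scale within each pair of rats, for a measured gene (left in each panel) and its partner in the same machine (right), the values of a pair joined by a line. Hspe1 and Grpel1 lie below Hspd1 and Hspa9 in each pair, Spg7 lies below Afg3l2, and Dnaja3 lies near Hspa9.

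The promoters of the 3 other genes that rose, and of Grpel1, are shown for the motifs they hold, since genes that moved together can be set side by side in this way. Each is the 250 bases before the start in GRCr8, from RefSeq, 5′ to 3′ on the gene's strand, with matches to the motifs searched in capitals.
Hspa9 (chr18:26828399-26828648, minus strand): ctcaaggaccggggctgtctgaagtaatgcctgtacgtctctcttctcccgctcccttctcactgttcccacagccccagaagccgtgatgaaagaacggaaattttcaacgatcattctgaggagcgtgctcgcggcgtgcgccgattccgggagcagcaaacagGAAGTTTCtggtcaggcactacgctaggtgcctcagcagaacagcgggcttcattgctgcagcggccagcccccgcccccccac
Trap1 (chr10:11971009-11971258, plus strand): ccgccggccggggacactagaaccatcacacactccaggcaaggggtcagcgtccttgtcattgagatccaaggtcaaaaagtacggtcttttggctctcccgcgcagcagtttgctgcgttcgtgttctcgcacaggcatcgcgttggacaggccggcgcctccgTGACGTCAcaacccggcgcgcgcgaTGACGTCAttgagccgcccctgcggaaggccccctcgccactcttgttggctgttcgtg
Afg3l2 (chr18:63269001-63269250, minus strand): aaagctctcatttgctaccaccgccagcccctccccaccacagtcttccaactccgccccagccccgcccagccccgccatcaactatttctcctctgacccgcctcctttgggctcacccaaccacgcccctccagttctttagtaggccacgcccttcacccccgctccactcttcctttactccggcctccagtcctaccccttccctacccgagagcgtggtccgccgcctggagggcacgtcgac
Grpel1 (chr14:78522869-78523118, minus strand): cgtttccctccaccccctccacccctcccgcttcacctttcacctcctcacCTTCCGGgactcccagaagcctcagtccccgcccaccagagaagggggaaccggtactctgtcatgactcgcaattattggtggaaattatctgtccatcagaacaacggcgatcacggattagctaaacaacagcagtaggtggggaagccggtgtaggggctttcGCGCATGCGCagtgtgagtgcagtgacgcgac
The Hspa9 window lies within the annotated span of the gene (chr18:26810004-26832958). It holds the form GAANNTTC of the heat shock element, 84 bases before the start. Trap1 holds the cAMP response element TGACGTCA at 84 and at 59 bases before the start, a motif present in 1.59% of the rat sequences. Grpel1 holds the motif of the nuclear respiratory factor NRF1, 32 bases before the start (0.762% of the sequences) and the ETS motif on its other strand. Afg3l2 holds none of the 7 motifs searched, which besides those named included the E-box CACGTG, found only before Clpp among these genes (5.59% of the sequences). No motif searched was found before all 4 genes that rose, and the lack of a match says only that these letters are not in this window.

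Hspd1, Hspa9 and Afg3l2 followed each other most closely over the 6 arrays. Among the 28 pairs of the 8 genes Pearson's r over 6 arrays ranged from -0.10 (Hspe1 and Trap1) to 0.98 (Hspd1 and Afg3l2), with a median of 0.76. Hspd1 with Hspa9 stood at 0.97 and Hspa9 with Afg3l2 at 0.98, whereas Hspd1 with Hspe1 stood at 0.50 and Hspe1 with Grpel1 at 0.83. The 6 arrays hold both pacing groups, so these values carry the difference between the groups and are a description. The genes whose pattern was most like the mean of the 8 were, of 5612 genes with at least a median spread, the potassium channel Kcna4 (r = 1.00), the HSP90 cochaperone relative Cdc37l1, the mitochondrial malic enzyme Me3, the M-band protein Myom1 and Sdr39u1, followed by Phf20l1, the lactate dehydrogenase subunit Ldhb, the citric acid cycle enzyme subunit Sucla2, the muscle creatine kinase Ckm and Tmx4, each with an r of at least 0.995. An r of 0.9 or more was found for 379 of these genes (6.75%).

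Markers of mitochondrial content moved in the same way. Of 13 such genes 7 rose and 0 fell (2.94% and 3.45% of all genes), with a median change of 0.47. The count was 2 without pair 1 or without pair 2, 12 without pair 3 and 11 without Con 3 alone, and the methods' paired t-test called 2. Of all 11237 genes 58, 164, 1066 and 770 were called higher in these leave-out fits, in that order, and 119 by the t-test. The genes that rose were led by the complex III subunits Uqcrc1 (0.70, SE 0.15) and Uqcrc2 (0.67, SE 0.18), the outer membrane channel Vdac1 (0.69, SE 0.16) and the complex II subunit Sdha (0.62, SE 0.19). The mean of the 13 genes was 0.49, 0.84 and 0.14 higher with RAP in pairs 1, 2 and 3, and that of the 8 chaperones and proteases 0.32, 0.68 and 0.12. Over the 6 arrays the means of the 2 lists had a Pearson correlation of 0.99, while the single genes ranged from 0.58 (Hspe1), 0.71 (Trap1) and 0.73 (Grpel1) to 0.98 (Afg3l2) and 0.99 (Hspd1). Taken relative to each array's mean of the 13 content markers, a scale chosen after the data were seen, Hspd1 differed by 0.06, Hspa9 by 0.04 and Afg3l2 by 0.06, and Trap1 by -0.08, Lonp1 by -0.15 and Clpx by -0.10. Hspe1 stood at -0.45 and Grpel1 at -0.30 on this scale, lower with RAP in all 3 pairs (-0.32, -0.44 and -0.59 for Hspe1, and -0.33, -0.32 and -0.25 for Grpel1). On this scale the median of all genes was -0.49 and 0 of the 8 genes passed. Of all 11237 genes, 9 were called higher on this scale and 2903 lower.

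The rest of the import and quality control machinery is given by list, beside the 6.39% of all genes that passed in either direction. Among 5 measured matrix cochaperones Dnaja3 rose and Hscb, which serves iron-sulfur cluster assembly together with Hspa9, fell by 0.68 (SE 0.19), with -0.37, -0.57 and -1.09 in the pairs. Hscb thus went the other way from Hspa9 in each pair. Of 6 genes of the TIM23 channel and import motor 2 rose, the channel protein Timm23 (0.41, SE 0.13) and Timm44 (0.40, SE 0.15), which tethers Hspa9 to the channel. Neither passed without pair 1, without pair 2, without RAP 3 or without Con 1, and the paired t-test called 1 gene of this list. Of 6 outer membrane import genes only the receptor Tomm70 did (0.40, SE 0.13).

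Of 8 other inner membrane proteases and scaffolds 0 passed (median 0.11), with Yme1l1, the i-AAA protease that faces the other side of the membrane, at 0.06 (SE 0.14). Of 5 presequence peptidases 0 passed (median 0.35), with Pmpcb, the catalytic subunit of the processing peptidase, at 0.35 (SE 0.15). Among 5 measured genes whose products the proteases are known to act on, 2 rose: Alas1, the first enzyme of heme synthesis (0.74, SE 0.14), and the inner membrane fusion protein Opa1 (0.41, SE 0.15). Of 10 stress response factors and their targets 0 rose and Cebpb fell (-0.46, SE 0.14). Trib3, Chac1, Fgf21 and Gdf15 of this list were dim, with group means of 4.76 to 5.32 beside the filter at 5. That these dim genes did not pass says little. Atf4 (-0.01, SE 0.16), Atf5 (-0.03, SE 0.13), Ddit3, which encodes CHOP (0.21, SE 0.17), and Hsf1, the heat shock factor (-0.04, SE 0.14), which drive such responses in mammalian cells, did not pass.

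The 6 left atria also differed in their signal of cell type markers, expressed for each marker list as its genes' average log2 distance from their own means over the arrays. Whether the number of cells or the RNA per cell differed was not tested. Markers of cardiomyocytes of any chamber (9 genes, 2 of which rose) stood at 0.09, 0.50 and 0.05 on the RAP arrays and at -0.31, -0.38 and 0.06 on the Con arrays, close to the course of the chaperones and proteases (0.03, 0.37 and 0.15 with RAP, against -0.29, -0.31 and 0.04 with Con). Markers of macrophages (10 genes, 0 passed) ran the other way in pairs 1 and 2. They stood at -0.32, -0.69 and 0.25 with RAP and 0.21, 1.10 and -0.56 with Con. So did those of fibroblasts (7 genes, 0 passed), at -0.17, -0.63 and 0.14 with RAP and 0.32, 0.63 and -0.29 with Con. In pair 3 both lists were higher with RAP, by 0.81 and 0.43, as were the 8 genes, by 0.12. The part of these shifts in the rises was not tested. Of the other lists, 2 of 6 adipocyte markers rose and 2 of 4 mesothelial markers fell, and 0 of 6 endothelial and 0 of 4 smooth muscle markers passed. Of 7 atrial cardiomyocyte markers 1 rose, Pam (0.43, SE 0.15), and all 7 had a mean change above 0, the list being 0.22, 0.58 and 0.02 higher with RAP in pairs 1, 2 and 3. Mybphl (0.43, SE 0.26) and Kcna5 (0.54, SE 0.30) did not pass. The defining atrial genes Nppa and Myl7 read 13.53 to 13.76 on the RAP arrays and 13.40 to 13.66 on the Con arrays.

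Con 3 stood apart, with ventricular markers (5 genes) at 1.65 and erythroid markers (4 genes) at 2.15 above their means. The ventricular light chain Myl2 read 8.60 in Con 3 and between 4.28 and 4.89 elsewhere. Con 3 was also the highest control for 7 of the 8 genes (all but Lonp1), and pair 3 gave the smallest difference in Hspd1, Hspa9 and Afg3l2. The share of all genes that were highest in Con 3 was not counted, so the 7 of 8 cannot be called particular to these genes. With Con 3 alone left out and no block, Hspd1, Hspa9, Trap1 and Afg3l2 passed, the same 4 as with it. The median change of the 8 genes was then 0.48. Of all 11237 genes, that fit called 770 higher with RAP and 961 lower. The fit without a block that kept Con 3 called 407 and 463, and the reported fit 330 and 388. The same 4 calls were thus made in a fit that called more genes in general.

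**Figure D4:**
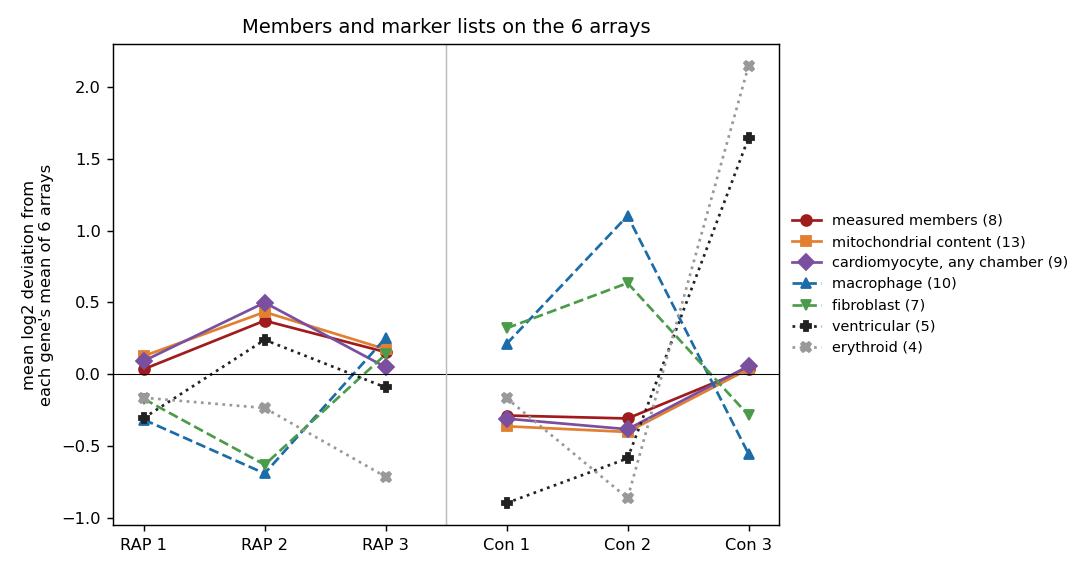
Mean log2 deviation of the 8 measured genes and of marker lists from their genes' means over the 6 arrays, RAP arrays left and Con arrays right of the grey line, with the number of genes per list in brackets. The 8 genes follow the mitochondrial content and cardiomyocyte markers on each array, and Con 3 is high in erythroid (2.15) and ventricular (1.65) markers.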

How the data were processed

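Left atrial RNA of each of the 6 rats was hybridized to its own whole-transcript gene array. The log2 signals deposited by the authors came from Partek Genomics Suite (version not given in the sources used here) and its default robust multiarray averaging (background correction, normalization between arrays, and a summary per probe set). Array values carry no read depth, and the number of arrays limits the precision. On each array, between 62.6 and 63.8% of the 29214 probe sets were above 5. Symbols came from the array's annotation (15310 probe sets with 1 symbol, 323 with several, 13581 with none). The 19907 probe sets above 5 in at least 1 array were fitted with limma 3.58.1 in R 4.3.3, with the pair as a block (2 residual and 2.76 prior degrees of freedom), on the values as deposited; SE and intervals are those of the moderated fit. The fit was tested on simulated data.

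The study paired its rats by design, and the labels number the rats of each group 1 to 3 without naming pairs. RAP and Con arrays with the same number were taken as a pair. The deviations of paired arrays from their group means were correlated at 0.22, -0.24 and -0.32 in pairs 1, 2 and 3. By this measure the values show no general likeness within pairs. The study reports clear similarity within its pairs by principal component analysis, a different measure whose plot it does not show. Whether equal numbers mark the study's own pairs was not tested further. The members and lists were chosen with earlier results of these data known. All 9 members are named, of each list up to 4 genes that passed by size of change, 6 partners whatever their values (Ppif, Dnaja3, Spg7, Yme1l1, Pmpcb and Timm44), and the 10 genes most like the members' mean over the arrays. The stress factors Atf4, Atf5, Ddit3 and Hsf1 and the dim targets Trib3, Chac1, Fgf21 and Gdf15 were named after their values were seen. So were Nppa, Myl7, Mybphl, Kcna5 and Myl2, the partner differences and the motifs. Alternatives tried were no block, the methods' paired t-test, a variance trend with robust moderation, array weights, 2 other filters, 3 rescalings, leaving out each pair or array, and another probe set.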

Additional observations from a re-analysis of the deposited data

How the results depend on the processing

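The 4 calls among the 8 genes (Hspd1, Hspa9, Trap1 and Afg3l2) held without the replicate block (4 genes, with 870 genes called in all), with a variance trend, with 2 other filters and with the arrays recentred, renormalized by quantiles or by cyclic loess. Array weights left 3, without Trap1, and called 2650 genes in all, where the reported fit called 718. The methods' paired t-test called 0 of the 8 and 234 genes in all. Leaving out a pair, or a single array without the block, gave between 0 and 5 of the 8 and between 164 and 2488 of all genes. It was 0 without pair 1 and without pair 2, 3 without pair 3, 5 without RAP 1 (with Lonp1), 3 without RAP 2, 2 (Hspd1 and Afg3l2) without RAP 3, Con 1 or Con 2, and 4 without Con 3. Without pair 3 the adjusted p of Afg3l2 was 0.170, and over all alternatives it lay between 0.0368 and 1 for Afg3l2, 0.0429 and 1 for Hspd1 and 0.0380 and 1 for Hspa9. Each of these low ends came from the limma fit with array weights, which called 2650 genes. Among the other limma fits the lowest adjusted p was 0.163 for Afg3l2 and Hspa9 (without Con 3) and 0.182 for Hspd1 (without pair 3). Hspe1 turned to -0.03 without pair 1, -0.14 without pair 2, -0.11 without RAP 2 and -0.06 without Con 1, and reached at most 0.28. Relative to the mitochondrial content markers, an alternative added after the data were seen, 0 of the 8 passed, and Hspe1 (-0.45), Grpel1 (-0.30), Trap1 (-0.082), Lonp1 (-0.15) and Clpx (-0.10) turned, by construction of that scale. Of all 11237 genes, 9 were called higher on that scale and 2903 lower. The counts of the other lists moved too: leaving out a pair or an array gave 2 to 12 of the content markers, 1 to 4 of the matrix cochaperones, 0 to 3 of the TIM23 genes, 0 to 2 of the outer membrane genes, 0 to 3 of the peptidases, 0 to 1 of the other inner membrane proteases, 0 to 2 of the stress factors and 1 to 2 of the protease substrates. With 3 pairs an exact sign-flip test cannot give a p under 0.25, and the intervals of Grpel1, Clpx and Hspe1 do not show that these genes were unaffected.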
